A study of Mus musculus with 9 samples.

Results

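The genes of the translation initiation and elongation factors were followed in RNA sequencing of the mouse cerebral cortex at E12.5. The 64 genes described here are those of the deposited count table whose symbol begins with Eif1, Eif2, Eif3, Eif4, Eif5, Eif6, Eef1 or Eef2, which are not named as pseudogenes and which had more than 10 reads in each of the 9 embryos. They are 64 of the 13680 genes that passed this read filter, out of 57010 genes in the table. Expression was compared between 3 Ctrl cortices, labelled as wild type (WT), 3 Cnot3 cKO cortices and 3 Cnot3;Trp53 dcKO cortices, one embryo to a library. Cnot3 encodes a subunit of CCR4-NOT, the main complex that shortens poly(A) tails, and Trp53 encodes the transcription factor p53. In the mutants floxed Cnot3, or floxed Cnot3 together with floxed Trp53 (genotype label Cnot3;p53 dcKO), was recombined by Emx1-Cre, which acts in radial glia of the dorsal telencephalon and in their progeny. Cells of other origin in the dissected tissue, such as blood vessels, meninges and blood, therefore kept both genes. The labels give neither strain nor sex, nor whether the Ctrl embryos carried floxed alleles or Cre.

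Translation begins when eIF2 brings initiator methionyl-tRNA to the small ribosomal subunit, where eIF1, eIF1A, eIF3 and eIF5 help to find the start codon. The cap-binding eIF4E, the scaffold eIF4G and the helicase eIF4A together form eIF4F, which recruits mRNA, and the 4E-BP proteins keep eIF4E away from eIF4G. A family of kinases phosphorylates eIF2 under different stresses and so slows its recycling by eIF2B. During elongation eEF1A delivers aminoacyl-tRNA, the eEF1B subunits reload eEF1A with GTP, and eEF2 moves the ribosome along the mRNA. Several of these mRNAs, like those of ribosomal proteins, start with a pyrimidine tract (the TOP motif) that couples their translation to mTOR, and control of translation is known to matter in neural progenitors.

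Both targeted genes were lower in the labelled mutants, although not equally in every embryo. Levels are given as CPM, that is read counts scaled to the library's reads on the 13680 genes with TMM factors across the 9 embryos. Values are listed for replicates 1, 2 and 3 in that order. Cnot3 stood at 117, 107 and 98.2 CPM in Ctrl, 15.0, 17.3 and 14.6 CPM in cKO and 7.33, 48.2 and 19.0 CPM in dcKO. Trp53 stood at 237, 254 and 215 CPM in Ctrl, 167, 164 and 167 CPM in cKO and 15.1, 110.4 and 20.6 CPM in dcKO, so that dcKO replicate 2 retained more of both transcripts than the other dcKO embryos. The 3 dcKO embryos were also less alike: over the 64 genes the median SD between embryos, in log2 units, was 0.51 in dcKO, against 0.091 in Ctrl and 0.10 in cKO, and over all tested genes it was 0.54, 0.16 and 0.16. Total counts ran from 21193798 to 45073349 per embryo. The cortex markers Emx1, Emx2, Lhx2 and Pax6 and all radial glia, intermediate progenitor and neuron markers were detected. In cKO Emx1 (-1.85), Lhx2 (-1.19) and Emx2 (-0.43) were called lower and Pax6 was not called (-0.18). The 4 neuron markers summed to 896 to 1241 CPM in Ctrl, 612 to 981 in cKO and 430 to 1012 in dcKO, and in cKO Tubb3 (-0.96) and Dcx (-0.58) were called lower, Neurod6 was called higher (0.82) with overlapping groups and Tbr1 was not called (0.27). The 4 radial glia markers summed to 2377 to 2733, 2350.2 to 2786 and 2415 to 2771, but in cKO Hes5 (-1.83) and Nes (-0.68) were called lower, Vim was called higher (0.45) and Sox2 was not called (-0.29). The 3 intermediate progenitor markers summed to 359 to 451, 337 to 407 and 321 to 602, and of them Btg2 was called lower in cKO (-0.34). The summed meningeal markers (3 collagen genes) read 674 to 768 in Ctrl, 363 to 583 in cKO and 233 to 461 in dcKO, and the summed erythroid markers (4 globin genes) 6101 to 8575, 7548 to 11486 and 4138 to 5640.1. Choroid plexus and hem markers summed to 61.4 to 85.1, 82.5 to 261 and 103 to 304, endothelial markers to 109 to 147, 115 to 157 and 75.3 to 83.2, microglial markers to 26.4 to 32.8, 28.3 to 58.0 and 7.89 to 25.5, and subpallial markers to 5.9 in dcKO replicate 2 and at most 0.367 in each of the other 8 embryos. The part of these shifts in the results below was not tested, and in whole cortices fewer cells of a type and less RNA per cell cannot be told apart.

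The translation factors were strongly expressed in control cortex. Divided by the length of their merged exons, which allows genes to be compared, their median level in Ctrl was 34.1 CPM per kilobase, against 6.28 over the 13562 tested genes with a known length. Eef1a1, the main eEF1A gene, led with 5654 ± 666 CPM per kilobase (mean ± SD, n = 3), and took 1.19% to 1.54% of all counted reads of the Ctrl libraries by itself. It was followed by Eef2 (953 ± 198), Eef1g (579.9 ± 27.4), Eif5a (529 ± 9.33) and Eif4a1 (431 ± 50.6 CPM per kilobase). In this order no gene overlapped with its neighbour in any Ctrl embryo. The lowest were Eef1a2 (1.36 ± 0.515), the eEF1A isoform of mature neurons and muscle, Eef2kmt (2.02 ± 0.14), Eif2ak2 (2.73 ± 0.214), Eef1akmt4 (3.99 ± 0.309) and Eif2b3 (4.13 ± 0.419 CPM per kilobase), of which the last pair overlapped. Another 5 symbols fit the name pattern but not the read filter. Eif2c5 and Eif4e1b had no read, Eef1akmt3 had at most 3 and Eif4ebp3 at most 4 reads in any embryo, and Eif2s3y, on the Y chromosome, had 339 to 585 reads in 5 embryos and none in the other 4. Pseudogenes were left out by the rule, and one of them, Eif4a-ps4, collected 1863 to 2920 reads per embryo. How reads shared between Eef1a1, Eif4a1, Eif5a or the pair Eif3j1 and Eif3j2 and their near copies were counted is not given in the sources used here, so the levels of these genes are uncertain.

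The stretches upstream of the annotated starts are shown for genes on which the results below turn, to show a motif that part of the promoters held. RefSeq promoter windows (250 bases before to 50 after the start, GRCm38.p6) were held for 51 of the 64 genes. The E-box CACGTG, which reads the same on both strands and is bound by factors such as Myc and Usf, lay in the windows of 13 of these 51 genes (25.5%), against 1164 of 9827 tested genes with a window (11.8%). Capitals mark it in the 70 bases before the start, 5′ to 3′.
Eif4e (chr3:138527198-138527267, plus strand): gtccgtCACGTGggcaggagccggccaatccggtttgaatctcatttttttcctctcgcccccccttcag
Eef2 (chr10:81176561-81176630, plus strand): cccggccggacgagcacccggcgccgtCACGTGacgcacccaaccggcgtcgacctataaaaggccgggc
Eif4g1 (chr16:20672657-20672726, plus strand): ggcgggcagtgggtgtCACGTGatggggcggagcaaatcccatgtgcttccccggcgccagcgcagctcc
Eif4ebp2 (chr10:61452670-61452739, minus strand): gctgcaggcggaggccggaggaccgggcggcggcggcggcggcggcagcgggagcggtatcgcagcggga
Eif4a2 (chr16:23107398-23107467, plus strand): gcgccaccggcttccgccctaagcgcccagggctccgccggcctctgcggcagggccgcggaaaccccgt
Eif4e, Eef2 and Eif4g1 carried the motif here, and Eif4ebp2 and Eif4a2 did not, nor elsewhere in their windows. The Eif4e stretch belongs to 1 of 2 annotated starts. Genes with the E-box moved in both directions in cKO: 1 was higher, 5 were lower and 7 were not called, with a median log2 fold change of -0.024, and the 38 genes without it gave 11, 9 and 18 with a median of 0.044. TATAAA, also looked for, lay in 4 of the 51 windows (7.84%), against 8.21% of all. The motifs were looked for with the results in view, and a match of letters does not show binding.

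Around the start itself, runs of 8 or more C or T within 5 bases before and 25 after it were found in 11 of the 51 genes (21.6%), against 12.6% of all. Capitals mark these runs in 30 bases per gene, shown because the pyrimidine start is the feature for which these mRNAs are known.
Eef2 (chr10:81176626-81176655, plus strand): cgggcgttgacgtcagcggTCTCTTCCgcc
Eef1a1 (chr9:78481700-78481729, minus strand): CCCTCTTCCCgagggtgggggagaacggta
Eif3f (chr7:108934410-108934439, plus strand): gCTCTCTCTCTTTCTCggcaagatggcttc
Eif3l (chr15:79075218-79075247, plus strand): CTTCTTCCgCTCTCTCCCacgggcttctgg
Eif2s3x (chrX:94212627-94212656, minus strand): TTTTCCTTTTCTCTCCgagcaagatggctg
Eif4a2 (chr16:23107463-23107492, plus strand): cccgtaggagcagggcggccgaggagcgcg
The run sits at the start in Eef1a1, Eif3f, Eif3l and Eif2s3x, 14 bases in for Eef2, and is missing from Eif4a2. The start of a transcript in these embryos was not measured. Of the 11 genes 1 was higher, 3 were lower and 7 were not called in cKO. Over all tested genes 24.0% were higher and 24.2% lower.

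In cKO cortices translation factor transcripts differed from Ctrl in both directions. The eIF2 kinases and eIF2B subunits that passed the test were all higher in cKO cortices, the eIF4G genes, Eif4ebp2, Eif5a and Eef2 were lower, and neither the cap-binding Eif4e nor the most abundant gene, Eef1a1, was called. By the edgeR quasi-likelihood test on the 6 embryos, 15 of the 64 genes (23.4%) were higher at an adjusted p under 0.05, where 24.0% of all tested genes were, and 18 (28.1%) were lower, where 24.2% were. The shares called were thus close to those of the transcriptome. The median log2 fold change of the 64 genes was 0.025, against 0.0098 over all genes, and the changes ran from -1.26 for Eef2 to 1.58 for Eif4a2. All 3 cKO embryos were above all 3 Ctrl embryos for 18 genes, where 29.2% of all genes were, and below them for 19, where 28.0% were. When each of the 6 embryos was left out in turn 25 of the 33 calls held throughout, and Eef1akmt1, Eif1, Eif2ak3, Eif2b3, Eif2s1, Eif3e, Eif3k and Eif5 all lost theirs without cKO replicate 1, which left 10 higher and 15 lower. In a model of all 9 embryos, whose shared spread takes in the uneven dcKO embryos, edgeR called 0 of the 64 (smallest adjusted p = 0.0509) and 0.0146% of all genes, with 6 higher and 6 lower at an unadjusted p under 0.05, where 15.3% and 11.7% of all genes were. DESeq2 in the same model called 3 higher and 4 lower, where 9.61% and 7.08% of all genes given an adjusted p were. The direction of all 33 genes was the same in each alternative fit.

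In GENCODE M21 on GRCm38, which is not the build used for the counts, Eif4a2 spans chr16:23107444-23114136, Eif2ak2 chr17:78852564-78882573, Eef2 chr10:81176631-81182498, Eif4ebp2 chr10:61428491-61452661 and Eif5a chr11:69916714-69921958.

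**Figure D1:**
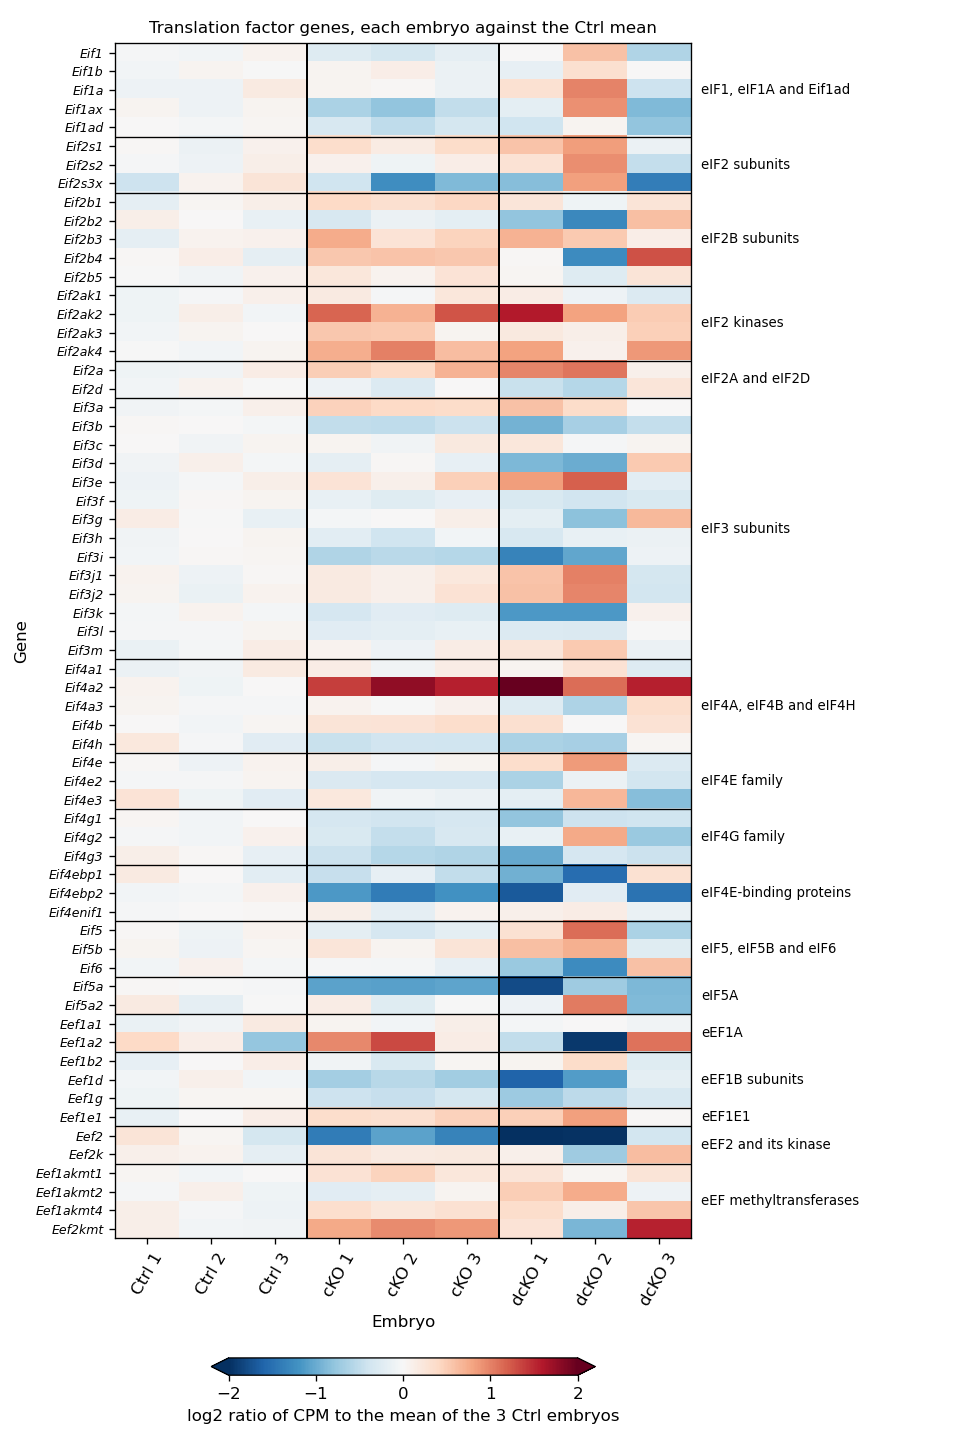
Log2 ratio of each embryo's CPM to the mean of the 3 Ctrl embryos for the 64 genes (rows, grouped by role) in the 9 embryos (columns), with colours saturating at 2 in either direction. The 3 cKO columns resemble one another, with Eif4a2 raised and Eef2, Eif4ebp2 and Eif5a lowered in each, whereas dcKO replicates 1 and 2 and dcKO replicate 3 often take opposite colours.

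Among the eIF2 factors, 1 of 3 subunits, 3 of 5 eIF2B subunits and 3 of 4 kinases were higher, and 1 subunit was lower. For these and the role groups that follow, the shares over all tested genes were 24.0% higher and 24.2% lower. Eif2ak2, which encodes the double-stranded RNA sensor PKR, had 13.2, 15.2 and 13.5 CPM in Ctrl and 31.2, 22.7 and 33.5 CPM in cKO. The groups did not overlap, and the log2 fold change was 1.06 ± 0.17 (SE, edgeR adjusted p = 0.000701). Eif2ak4, the amino acid sensor GCN2, had 38.1, 36.7 and 39.8 CPM in Ctrl and 62.9, 77.0 and 58.7 CPM in cKO, again without overlap (0.79 ± 0.12, edgeR adjusted p = 0.000479). Eif2ak3, the endoplasmic reticulum kinase PERK, stood at 31.1, 33.5 and 32.4 CPM in Ctrl and 47.0, 46.3 and 33.7 CPM in cKO. cKO replicate 3 lay just above the Ctrl embryos (0.39 ± 0.14, edgeR adjusted p = 0.0401), and the call was lost in 5 of 6 fits that left out 1 embryo. Eif2ak1, the haem-regulated kinase, was not called, at 0.13.

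The eIF2B complex returns eIF2 to its GTP-bound form. Eif2b4, its delta subunit, had 49.5, 53.1 and 42.9 CPM in Ctrl and 70.9, 72.0 and 70.5 CPM in cKO, so that every cKO embryo exceeded every Ctrl embryo (0.55 ± 0.10, edgeR adjusted p = 0.00152). Eif2b3 (0.50) and Eif2b1 (0.37) were also higher, and Eif2b5 (0.19) and Eif2b2 (-0.21) were not called. Of the eIF2 subunits, Eif2s1, which carries the site the kinases phosphorylate, was higher at 0.30 ± 0.089, and Eif2s2 was at 0.046. Eif2a, which encodes a separate initiator tRNA-binding protein, had 82.2, 82.9 and 97.2 CPM in Ctrl and 123, 115 and 141 CPM in cKO, a rise in every embryo (0.53 ± 0.10, edgeR adjusted p = 0.00226).

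Eif2s3x encodes the gamma subunit on the X chromosome, with a copy, Eif2s3y, on the Y chromosome. Its levels were 487, 681 and 772 CPM in Ctrl, 491, 274 and 350.3 CPM in cKO and 357, 1141 and 248 CPM in dcKO. It was called lower in cKO (-0.80 ± 0.21, edgeR adjusted p = 0.0102), yet the groups overlapped. The embryos with Xist reads and no Eif2s3y reads were Ctrl replicates 2 and 3, cKO replicate 1 and dcKO replicate 2, and each was the highest or among the 2 highest of its group. Thus 1 of 3 cKO embryos but 2 of 3 Ctrl embryos were of this kind, and their part in the call was not tested. Eif1ax, X-linked as well, showed no such split within Ctrl. In dcKO it had 262, 561 and 163 CPM, so that dcKO replicate 2 was again the highest.

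eIF1 and eIF1A help to scan for the start codon, and Eif1ad encodes a protein with an eIF1A-like domain that acts in maturation of the small subunit. Of the 5 genes with these names 3 were lower and 2 were not called. Eif1ax had 309, 278 and 309 CPM in Ctrl and 192, 173 and 213 CPM in cKO (-0.63 ± 0.094, edgeR adjusted p = 0.000478), and its autosomal twin Eif1a remained at -0.0068 ± 0.11. Eif1ad (-0.39) and Eif1 (-0.26) were lower by smaller amounts, and Eif1b was not called (0.03). The large eIF3 complex, which holds the small subunit and the mRNA together, had genes called in both directions. Of its 14 genes 2 were higher, 3 were lower and 9 were not called. Of all tested genes 24.0% were higher and 24.2% lower. Eif3a, the core subunit with the longest chain, had 583, 592 and 653 CPM in Ctrl and 841, 806 and 788 CPM in cKO (0.41 ± 0.081). Eif3b, its partner in the core, moved the other way, from 488, 482 and 467 CPM to 339, 335 and 354 CPM (-0.48 ± 0.073), as did Eif3i, from 279, 296 and 299.9 CPM to 192, 199.9 and 197 CPM (-0.57 ± 0.074). In all 3 genes the groups were apart. Eif3e was called higher (0.30) with overlapping groups, Eif3k lower (-0.27), and the near-identical Eif3j1 and Eif3j2 stood at 0.17 and 0.19 without a call.

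**Figure D2:**
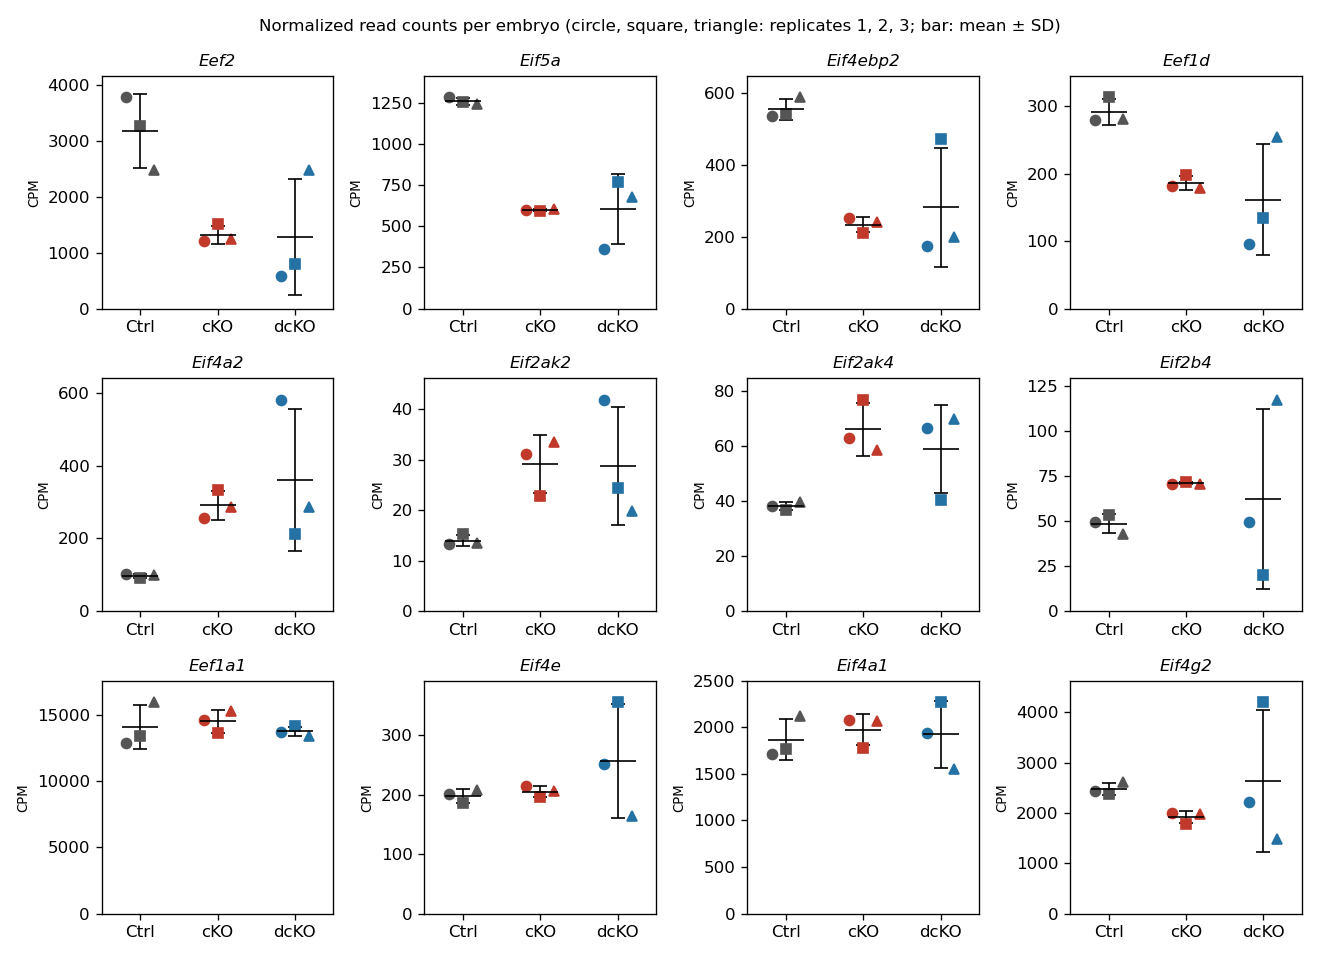
CPM of 12 genes in each embryo, with Ctrl in grey, cKO in red and dcKO in blue, and the mean ± SD of 3 embryos as a black bar on axes that begin at 0. Eef2, Eif5a, Eif4ebp2 and Eef1d are lower and Eif4a2, Eif2ak2, Eif2ak4 and Eif2b4 higher in all 3 cKO embryos than in any Ctrl embryo, and Eef1a1, Eif4e and Eif4a1 overlap between the groups.

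The helicase genes of eIF4F differed widely from one another. Eif4a2 had 103, 91.4 and 98.5 CPM in Ctrl, 255, 334 and 286 CPM in cKO and 582, 211 and 287 CPM in dcKO. All 6 mutant embryos lay above all Ctrl embryos, and in cKO the gene was 2.99-fold higher (1.58 ± 0.11, edgeR adjusted p = 2.54e-05). Eif4a1, the more abundant helicase, had 1713, 1772 and 2118 CPM in Ctrl and 2076, 1780.5 and 2066 CPM in cKO and was not called (0.08 ± 0.11, edgeR adjusted p = 0.561). The eIF4A2 protein has been found in complexes with CCR4-NOT. Its gene also holds 5 small nucleolar RNA genes in GENCODE M21, the most of any member, and partly overlaps Rfc4 on the opposite strand. In all, 9 of the 64 genes host 17 such RNAs. Of these hosts 3 were higher and 4 lower in cKO, where 24.0% and 24.2% of all tested genes were. A difference from those shares was not tested. Eif4a3, a helicase of the exon junction complex, was at 0.05. The eIF4A cofactors differed in direction, Eif4b being higher (0.29 ± 0.076) and Eif4h lower (-0.41 ± 0.11).

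Eif4e, the cap-binding subunit whose promoter stretch opens the sequences above, had 202, 186 and 208 CPM in Ctrl and 214, 196 and 206 CPM in cKO. These groups overlapped (0.049 ± 0.08, edgeR adjusted p = 0.633), and with a correction for GC content the sign turned (-0.21, edgeR adjusted p = 0.0263). Eif4e2, which encodes the repressive cap-binding protein 4EHP, had 125, 125 and 131 CPM in Ctrl and 104, 100.2 and 100.1 CPM in cKO, with every cKO embryo lower (-0.32 ± 0.075). Eif4e3 was not called (0.019). All 3 eIF4G genes were lower without overlap. Eif4g1, the main scaffold, had 881, 825 and 857 CPM in Ctrl and 674, 656 and 680.2 CPM in cKO (-0.35 ± 0.075). Eif4g3 had 189, 178 and 156 CPM in Ctrl and 129, 117 and 115 CPM in cKO (-0.54 ± 0.094). Eif4g2, the relative (also called DAP5) that lacks the eIF4E site, had 2435, 2374 and 2612 CPM in Ctrl and 2005, 1776 and 1971 CPM in cKO (-0.37 ± 0.088).

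Eif4ebp2, the eIF4E-binding repressor best known from the brain, had 537, 542 and 589.8 CPM in Ctrl and 252, 212 and 241 CPM in cKO. Each cKO embryo was far below each Ctrl embryo (-1.24 ± 0.09, edgeR adjusted p = 2.69e-05). Eif4ebp1, at 18.1, 16.2 and 13.9 CPM in Ctrl and 11.7, 14.4 and 11.4 CPM in cKO, overlapped between the groups (-0.36 ± 0.17, edgeR adjusted p = 0.109), and Eif4enif1, whose product 4E-T ties eIF4E to mRNA decay, was at 0.0086. Eif5, the GTPase activator of eIF2, was lower (-0.24 ± 0.081), and Eif5b and Eif6, which act at subunit joining, were not called. Eif5a encodes the hypusine-bearing factor that helps ribosomes past difficult peptide bonds. It had 1283, 1251 and 1239.8 CPM in Ctrl and 599, 593 and 607 CPM in cKO, with little spread in either group (-1.07 ± 0.075, edgeR adjusted p = 2.69e-05). Its low paralogue Eif5a2 had 27.4, 21.2 and 23.9 CPM in Ctrl and 26.8, 20.5 and 24.1 CPM in cKO and overlapped (-0.024 ± 0.15).

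In elongation Eef2 stood out. Eef2 had 3776, 3257 and 2469.9 CPM in Ctrl, 1202, 1505 and 1253 CPM in cKO and 577, 807 and 2468 CPM in dcKO. The cKO embryos lay below the lowest Ctrl embryo, and the log2 fold change was -1.26 ± 0.15 (edgeR adjusted p = 0.000159), whereas its kinase gene Eef2k was at 0.21 ± 0.11 without a call. Eef1a1 had 12862, 13442 and 15984 CPM in Ctrl and 14626, 13609 and 15302 CPM in cKO and overlapped (0.042 ± 0.11, edgeR adjusted p = 0.778). Eef1a2 had few reads, at 3.75, 3.12 and 1.66 CPM in Ctrl and 5.55, 7.1 and 3.17 CPM in cKO, and was not called by edgeR (0.90 ± 0.38, edgeR adjusted p = 0.0758), although limma voom on all 9 embryos (0.80, adjusted p = 0.0427), DESeq2 on the same 6 embryos (adjusted p = 0.0498) and edgeR with the GC correction called it higher. Of the exchange factor subunits of eEF1B, Eef1d had 279, 314 and 282 CPM in Ctrl and 181, 198 and 179 CPM in cKO (-0.65 ± 0.083, edgeR adjusted p = 0.000218). Eef1g was lower as well (-0.41 ± 0.081), and Eef1b2 was not called (-0.10). Eef1e1, which despite its name encodes a scaffold of the tRNA synthetase complex, was higher (0.38 ± 0.10). Of 4 methyltransferase genes that modify elongation factors 2 were higher, led by Eef2kmt, the eEF2 lysine methyltransferase, at 5.83, 5.21 and 5.16 CPM in Ctrl and 9.08, 10.4 and 9.88 CPM in cKO (0.86 ± 0.19, edgeR adjusted p = 0.00445). The other, Eef1akmt1 (0.33 ± 0.12, edgeR adjusted p = 0.0446), lost its call in all 6 fits that left out 1 embryo.

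**Figure D3:**
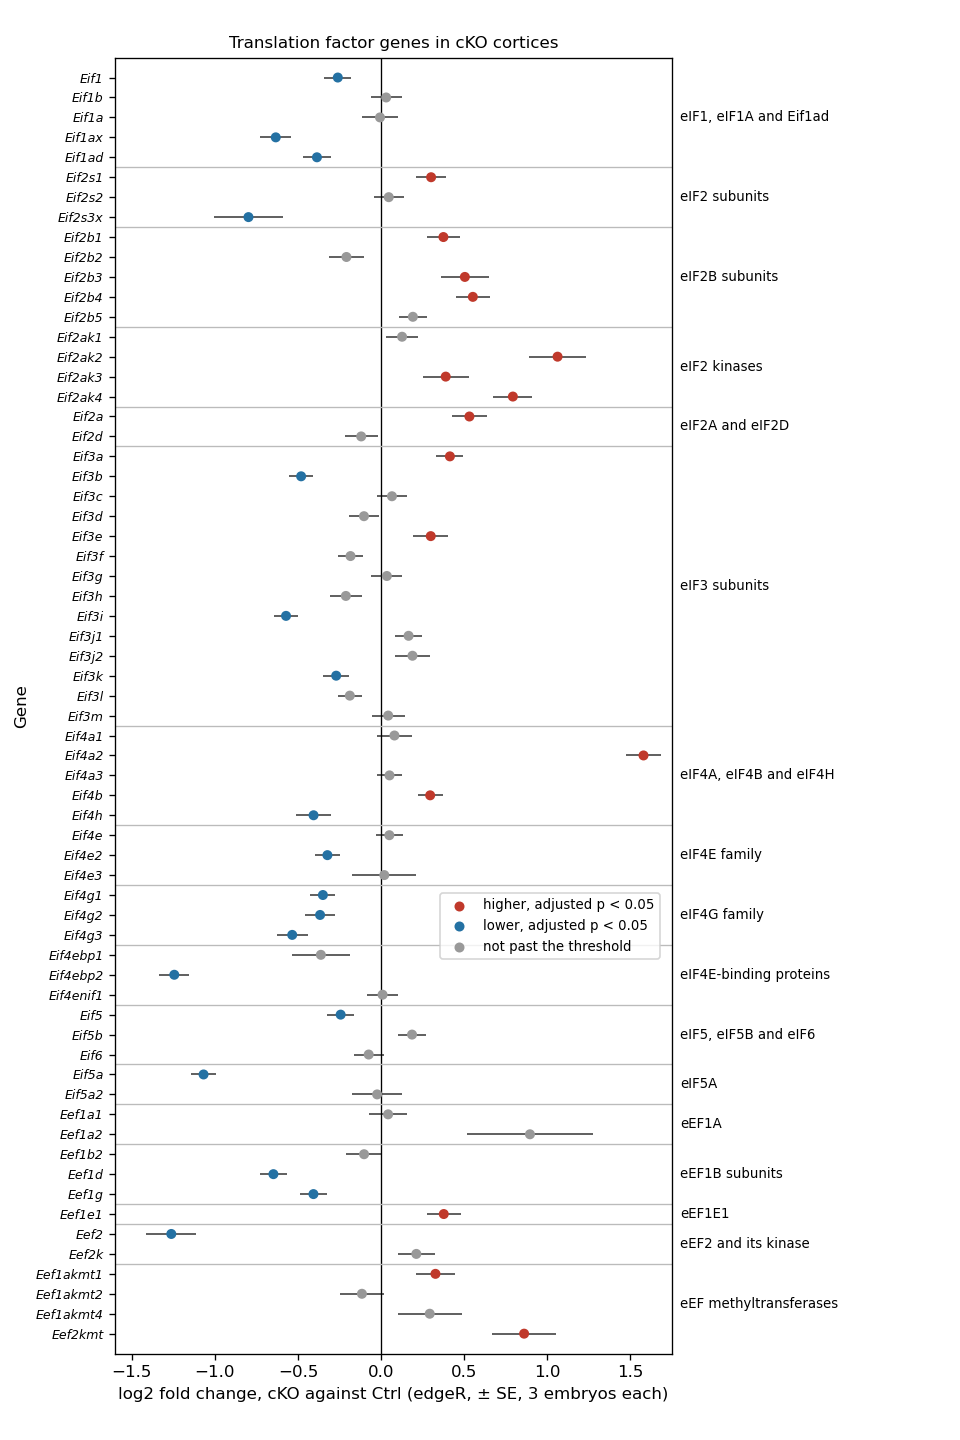
Log2 fold change of cKO against Ctrl for the 64 genes, grouped by role, with the SE of the edgeR estimate as bars and 3 embryos per group. Red points (15) are higher and blue points (18) lower at an adjusted p under 0.05, and grey points (31) did not pass. All 3 eIF4G genes are blue, and no kinase or eIF2B gene is.

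GC content moved with these calls. The longest transcripts of the 15 higher genes had a median GC content of 46.8% and those of the 18 lower genes 51.3%, and over all genes called higher and lower the medians were 46.5% and 53.8%. With a per-embryo correction for GC content 14 of the 64 genes (21.9%) were higher, where 21.5% of all genes were, and 25 (39.1%) were lower, where 27.4% were, and the median log2 fold change became -0.14, against -0.046 over all genes. Of the original calls 10 of 15 higher and 17 of 18 lower genes held. Eef1e1 (0.12), Eif2b3 (0.30), Eif2s1 (0.041), Eif3a (0.17) and Eif3e (0.099) lost theirs among the higher genes, and Eif4h (-0.18) among the lower. In turn 12 genes gained a call, Eef1a2 (1.58, edgeR adjusted p = 0.00116), Eif6 (0.33), Eif3g (0.28) and Eif2b5 (0.25) as higher, and Eif4ebp1 (-0.52), Eef1akmt2 (-0.39), Eef1b2 (-0.32), Eif3l (-0.29), Eif3f (-0.28), Eif3h (-0.25), Eif4e (-0.21) and Eif2s2 (-0.19) as lower. Eif6, Eif4e and Eif2s2 thereby turned in sign. Among the calls that held, the log2 fold change moved by more than 1.5 times for Eif2a (0.28), Eif2b4 (0.89), Eif3b (-0.23), Eif4g2 (-0.63) and Eif5 (-0.51). The cell type markers moved too. Dcx (-0.83) and Btg2 (-0.44) moved further from 0 and remained called. Neurod6 (0.56, edgeR adjusted p = 0.0745, and DESeq2 adjusted p = 0.0504 without the correction) and Vim (0.24, edgeR adjusted p = 0.12) lost their calls, Pax6 (-0.30) and Sox2 (-0.36) gained one as lower, and Emx1 (-0.49), Lhx2 (-0.66), Hes5 (-0.98) and Tubb3 (-0.53) came nearer to 0 and remained called.

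Ratios of reads between partner genes within one library do not depend on scaling between embryos. They were not corrected for GC content, in which partners differ. It was 40.2% for Eif4a2 and 46.3% for Eif4a1, and 52.4% for Eif4ebp2 and 40.5% for Eif4e. For Eif5a2 and Eif5a it was 38.8% and 55.0%, and for Eif4g2 and Eif4g1 43.2% and 54.2%. The part of GC content in these ratios was not tested. Per 100 Eif4a1 reads, Eif4a2 gave 6.0, 5.16 and 4.65 reads in Ctrl, 12.3, 18.8 and 13.8 in cKO and 30.0, 9.3 and 18.4 in dcKO. Every mutant embryo was thus above every Ctrl embryo. Per 100 Eif4e reads, Eif4ebp2 gave 266, 292 and 284 reads in Ctrl, 117, 108 and 117 in cKO and 68.9, 133 and 121 in dcKO, again with the mutants all to one side. Per 100 Eif5a reads, Eif5a2 gave 2.13, 1.7 and 1.93 reads in Ctrl, 4.48, 3.45 and 3.96 in cKO and 6.23, 6.43 and 1.95 in dcKO, and here dcKO replicate 3 fell among the Ctrl embryos. Eif3j2 per 100 Eif3j1 reads ran only from 36.6 to 39.4 over all 9 embryos. This ratio is no reference for the other pairs, because the genes are near-identical and how their shared reads were counted is not given. Eif4g2 per 100 Eif4g1 reads gave 277, 288 and 305 in Ctrl and 298, 271 and 289.8 in cKO, which overlapped, and 450.4, 654 and 227 in dcKO. With 3 embryos against 3 the exact permutation test (two-sided) cannot give a p below 0.10, the value reached by Eif4a2 to Eif4a1, Eif4ebp2 to Eif4e and Eif4e2 to Eif4e in both mutants and by Eif5a2 to Eif5a, Eef2 to Eef1a1 and Eif1ax to Eif1a in cKO, and adjusted over the 33 tests of 11 ratios that value becomes 0.367.

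**Figure D4:**
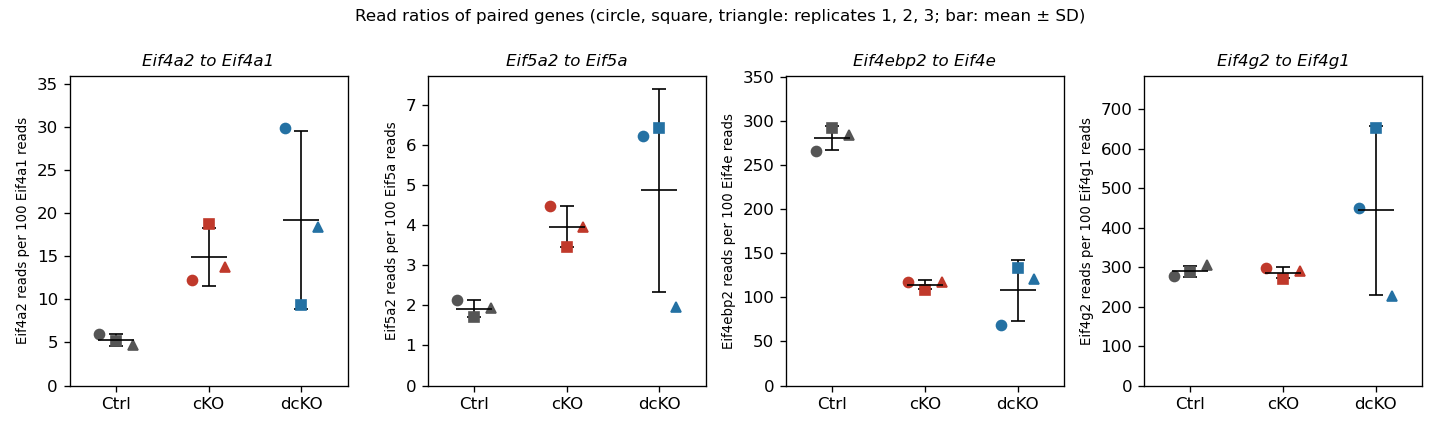
Reads of the first gene per 100 reads of the second in each embryo for 4 pairs, with the mean ± SD of 3 embryos as a black bar on axes that begin at 0. The Eif4a2 to Eif4a1 ratio is higher and the Eif4ebp2 to Eif4e ratio lower in all 6 mutant embryos, whereas the Eif4g2 to Eif4g1 ratio overlaps between Ctrl and cKO. The ratios are not corrected for GC content.

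Together the 64 genes took 3.28%, 3.38% and 3.70% of counted reads in Ctrl, 3.49%, 3.36% and 3.57% in cKO and 3.29%, 3.21% and 3.29% in dcKO. The cKO and Ctrl shares overlapped (exact permutation p = 1.00, two-sided), the dcKO shares lay below those of cKO (exact permutation p = 0.10) and the dcKO and Ctrl shares overlapped (exact permutation p = 0.30). Eef1a1 weighed heavily in this. Without it the shares were 2.09%, 2.10% and 2.16% in Ctrl, 1.94%, 1.89% and 1.96% in cKO and 1.85%, 1.99% and 1.89% in dcKO, so that both mutants lay below Ctrl (exact permutation p = 0.10 each) and overlapped with one another (exact permutation p = 0.80).

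Other genes of translation were read for comparison. Of 37 listed cofactors, release and recycling factors and regulators 36 were tested in cKO, with a median log2 fold change of -0.063. Of these 8 were higher and 13 lower, where 24.0% and 24.2% of all tested genes were. Mknk2, one of the kinases that phosphorylate eIF4E, was at -1.11 ± 0.16, while its relative Mknk1 was at 0.51 ± 0.15. The poly(A)-binding protein genes Pabpc4 (-0.94 ± 0.09) and Pabpc1 (-0.38 ± 0.083) were lower, as were Larp1 (-0.60 ± 0.084), the TOP mRNA regulator, and Ddx6 (-0.79 ± 0.071), a helicase that works with CCR4-NOT. Paip1, Paip2 and Pdcd4, which act on PABP or eIF4A, were higher by 0.36 to 0.43, while Paip2b, the paralogue of Paip2, was lower (-0.40 ± 0.10). The release factor gene Gspt2 was higher (0.98 ± 0.18). Of the phosphatase subunits that reverse eIF2 phosphorylation, Ppp1r15a (-0.46 ± 0.15) and Ppp1r15b (-0.39 ± 0.085) were lower. With the GC correction Mknk2 came to -0.45, Pabpc1 to -0.62 and Paip2b to -0.61 and remained called, Paip1 (0.18, edgeR adjusted p = 0.0706), Paip2 (0.11, edgeR adjusted p = 0.217), Pdcd4 (0.082, edgeR adjusted p = 0.544) and Ppp1r15a (-0.22, edgeR adjusted p = 0.24) lost their calls, and 5 of the 36 were higher and 12 lower. Of 80 cytosolic ribosomal protein genes 52 (65%) were lower in cKO, where 24.2% of all tested genes were, with a median log2 fold change of -0.56. With the GC correction 64 were lower, where 27.4% of all genes were, and 1 was higher, where 21.5% were. In a model of all 9 embryos edgeR called 0 of the 80 and 0.0146% of all genes. These counts are a description, since a difference from the 64 factors was not tested.

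Between dcKO and Ctrl the number of calls depended on the fit, from none by edgeR to 34 by limma voom, and the dcKO embryos went separate ways. The same 3 Ctrl embryos served both mutant comparisons. By edgeR 0 of the 64 genes passed (smallest adjusted p = 0.20), as did 0% of all genes, and at an unadjusted p under 0.05 there were 3 higher genes, where 11.1% of all genes were, and 8 lower, where 8.56% were. DESeq2 on the same embryos called 1 gene higher, Eif4a2, where 3.54% of all genes given an adjusted p were, and 2 lower, Eif5a and Eif3b, where 2.52% were. In models of all 9 embryos DESeq2 called 3 higher (10.3% of all genes) and 9 lower (7.41%), and limma voom with sample quality weights, which gives uneven libraries less weight, called 15 higher (26.5%) and 19 lower (26.2%). By limma voom Eif4a2 was at 2.40 (adjusted p = 2.79e-05) and Eef2 at -2.27 (adjusted p = 2.95e-05). Both estimates lay nearest to dcKO replicate 1. The log2 ratios of dcKO replicates 1, 2 and 3 to the Ctrl mean were 2.58, 1.12 and 1.56 for Eif4a2. For Eef2 they were -2.46, -1.97 and -0.36. The weight that each embryo received is not given here. All dcKO embryos were above all Ctrl embryos for 6 genes, where 15.6% of all genes were, and below them for 12 (18.8%), where 11.2% were. Eif4a2 was at 1.84 ± 0.38 (edgeR adjusted p = 0.2, DESeq2 adjusted p = 0.00198). Eif2ak2 (41.9, 24.4 and 19.8 CPM in dcKO, 0.99 ± 0.34) and Eif2ak4 (66.7, 40.6 and 69.8 CPM, 0.59 ± 0.27) were likewise without overlap with Ctrl. Eif5a had 363, 771 and 676 CPM in dcKO (-1.11 ± 0.30) and Eif4ebp2 173, 474 and 199 CPM (-1.04 ± 0.37), each dcKO embryo below each Ctrl embryo. Eif3b (-0.72 ± 0.21), Eif4g1 (494, 643 and 649.6 CPM, -0.57 ± 0.21) and Eif4g3 (85.8, 138 and 129 CPM, -0.61 ± 0.23) were placed in the same way. So were Eef1g (-0.57), Eef1d (-0.89) and Eef2 (-1.34), the last only barely, as dcKO replicate 3 nearly equalled the lowest Ctrl embryo. Eif3f, Eif3h, Eif3i and Eif4e2 made up the 12, and Eef1akmt4, Eif2ak3 and Eif2b3 the 6 above. Eif2a, Eif3e, Eef1e1, Eif2s1 and Eif2b3, the other higher genes among the 8 of smallest p, were at 0.72, 0.66, 0.42, 0.43 and 0.42.

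The result turned on single dcKO embryos. For 25 of the 64 genes (39.1%, against 34.2% of all tested genes) dcKO replicates 1 and 2 lay on one side of the Ctrl mean and dcKO replicate 3 on the other, and for 24 (37.5%, where 41.5% of all tested genes did so) all 3 lay on one side, 11 above and 13 below. Eef2kmt read 6.52, 2.86 and 15.8 CPM, Eif2b4 49.3, 20.2 and 117 CPM, Eif6 42.9, 30.0 and 108 CPM and Eif5 384, 675 and 199.7 CPM. Without dcKO replicate 3 edgeR called 12 genes higher, where 16.4% of all genes were, and 15 lower, where 21.4% were. Without dcKO replicate 2, the embryo that retained more Cnot3 and Trp53, it called 2 genes, Eif4a2 higher, where 1.57% of all genes were, and Eif4ebp2 lower, where 0.512% were. Across the 64 genes, which share libraries and depth, the Spearman correlation of the log2 ratio to Ctrl with GC content was -0.59, -0.84 and 0.35 in dcKO replicates 1, 2 and 3, against -0.61, -0.79 and 0.14 over 13561 genes. In cKO it was -0.23, -0.091 and -0.27, against -0.39, -0.26 and -0.43 over all genes. The Ctrl embryos, set against their own mean, also differed in sign, with 0.31, 0.52 and -0.59 over the 64 genes and 0.31, 0.27 and -0.50 over all. With the GC correction the log2 fold changes in dcKO were 1.43 for Eif4a2, -0.60 for Eif5a, -0.13 for Eif3b and -0.90 for Eef2, none with an edgeR adjusted p under 0.05.

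**Figure D5:**
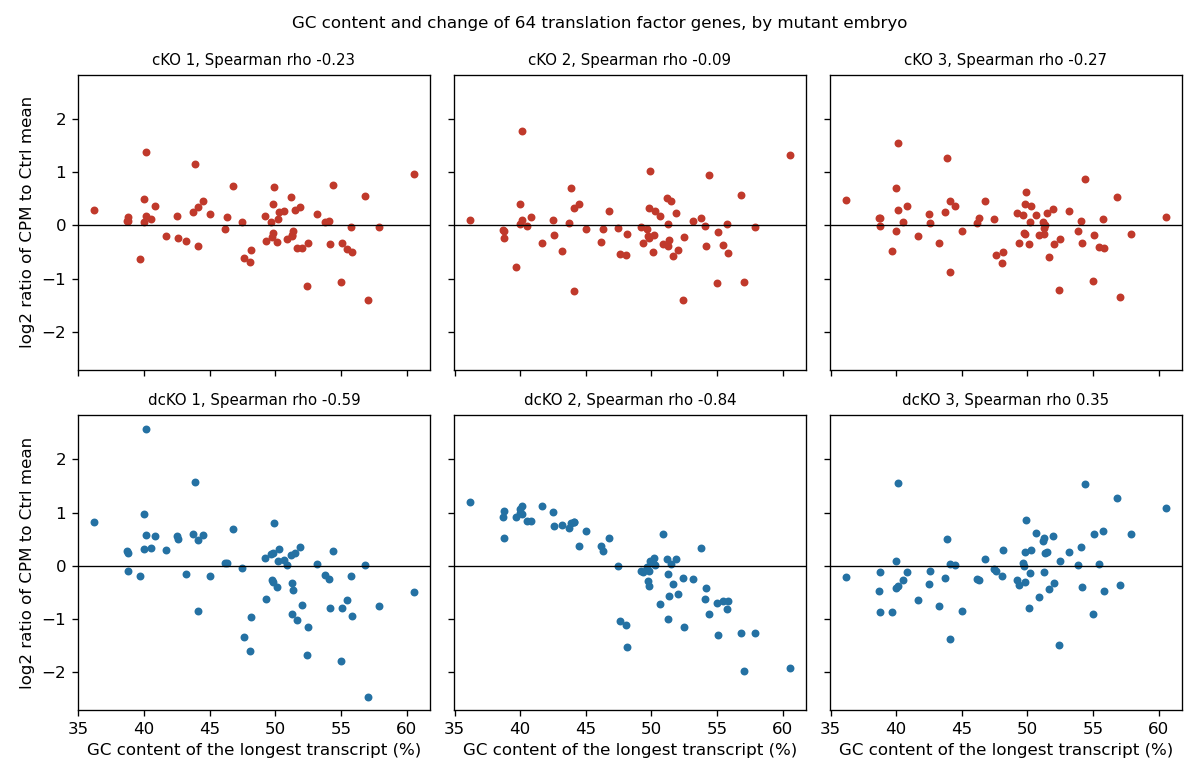
Log2 ratio of CPM to the Ctrl mean against GC content of the longest transcript (in percent) for the 64 genes in each mutant embryo, with cKO in red and dcKO in blue. The points fall steeply with GC content in dcKO replicate 2 (rho -0.84), fall in dcKO replicate 1 (-0.59) and rise in dcKO replicate 3 (0.35).

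Against cKO directly, the dcKO cortices gave no detectable difference in these genes. edgeR called 0 of the 64, as it did 0% of all genes, and 0 were higher or lower at an unadjusted p under 0.05, where 0.738% and 1.42% of all genes were, and DESeq2 called 0 as well. No gene had all dcKO embryos above all cKO embryos, where 2.62% of all genes did, and Eif2b1, Eif4g1 and 1 eIF3 gene, Eif3f, had them below, where 3.63% did. The estimates were wide. They were 0.77 ± 0.41 for Eif1ax, 0.54 ± 0.29 for Eef1akmt2, 0.68 ± 0.39 for Eif5, -0.85 ± 0.72 for Eef1a2 and -0.23 ± 0.20 for Eif2b1. The other genes of smallest p were Eif3e (0.42), Eif1a (0.42) and Eif2s3x (0.65) among those higher, and Eif3k (-0.34), Eif3b (-0.20), Eif2ak1 (-0.19), Eif4g1 (-0.17), Eif3f (-0.15) and Eif2b5 (-0.16) among those lower. Eif4g2, at 2005, 1776 and 1971 CPM in cKO and 2225, 4204 and 1475 CPM in dcKO, had its highest and its lowest embryo of all 9 within dcKO. Eif4e (0.33 ± 0.28) and Eef2 (-0.041 ± 0.50) were no better fixed, and without dcKO replicate 3 the counts at an unadjusted p under 0.05 became 14 higher and 13 lower, where 17.1% and 16.6% of all genes were, still with none called. By limma voom on all 9 embryos 9 were higher and 15 lower at an unadjusted p under 0.05, where 13.9% and 16.0% of all genes were, and 0 were called.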

How the data were processed

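Cortices of single embryos were dissected, frozen and sequenced as stranded poly(A) libraries (NovaSeq, paired-end). The authors deposited raw counts per gene, made with FastQC, Cutadapt, STAR (mm39) and featureCounts. Tool versions, the annotation and the strand setting are not given in the sources used here. The deposited counts have no normalization or filter, and each column was matched to its embryo through the sample descriptions.

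Differential expression was tested with edgeR 4.0.16 in R 4.3.3 (TMM factors, quasi-likelihood F-test, Benjamini-Hochberg adjustment over the 13680 genes that had more than 10 reads per embryo), using the 6 embryos of each comparison. SE is the log2 fold change divided by the square root of F. DESeq2 1.42.0, limma 3.58.1 and further settings were alternatives. P-values measure the spread between these embryos, each taken as 1 replicate. Totals were 21193798 to 45073349, but counting error matters more for genes with few reads. In their lowest embryos Eef1a2 had 29 reads and Eef2kmt 105. Scripts were tested on simulated data. The members, lists, tests and motifs were chosen with earlier results of these data known. Groups come from the labels. Genes named were the 8 with the smallest p in each direction of each comparison, paralogue sets, and the 5 highest and lowest levels. Listed genes were named after their values were seen. Symbols came from a gene name table that matched 13561 of the tested genes, and lengths, GC content (longest transcript) and positions from GENCODE M21 (GRCm38). The GC correction subtracted a loess curve (span 0.3) per embryo. Shares and read ratios were compared by exact permutation tests (SciPy 1.17.1). The ratios were chosen after seeing the data. Some listed marker results are not reported here.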

Additional observations from a re-analysis of the deposited data

How the results depend on the processing

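In cKO against Ctrl, 15 members were called higher and 18 lower. A model of all 9 embryos gave 0 and 0 in edgeR (6 and 6 at an unadjusted p under 0.05) and 3 and 4 in DESeq2 (6 and 8 unadjusted), the shared spread then including the dcKO embryos. Leaving out 1 embryo gave 10 to 14 higher and 15 to 19 lower (13 to 16 and 18 to 21 unadjusted), and 25 of 33 calls held in all 6 such fits. RLE factors, other filters, DESeq2 on 6 embryos and GC correction kept both counts within 1.5 times. With GC correction, alone and with the replicate block, Eif4e (-0.21 and -0.21), Eif2s2 (-0.19 and -0.19) and Eif6 (0.33 and 0.34) reversed and were called.

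In dcKO against Ctrl, with 0 calls and 3 higher and 8 lower unadjusted, DESeq2 called 1 higher and 2 lower. With all 9 embryos DESeq2 called 3 and 9 (5 higher unadjusted), edgeR had 6 higher unadjusted, and limma voom with sample quality weights called 15 and 19 (16 and 20 unadjusted). The GC correction gave 5 higher unadjusted. Leaving out 1 embryo gave 0 to 12 higher and 0 to 15 lower (1 to 16 and 2 to 21 unadjusted), the highest without dcKO replicate 3. In dcKO against cKO, 0 unadjusted became 1 higher with all 9 embryos in edgeR or DESeq2 or with no low-count filter, and 9 higher (13.9% of all genes) and 15 lower (16.0%) with limma voom. Leaving out 1 embryo gave 0 to 14 higher and 0 to 13 lower unadjusted and 0 calls. The cause of these shifts was not tested beyond the embryos left out.

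Replicate numbers do not pair the embryos: same-numbered embryos correlated at 0.033 (cKO and Ctrl), -0.36 (dcKO and Ctrl) and -0.18 (dcKO and cKO) on average. Library names share a prefix for Ctrl replicate 1 and cKO replicate 2, and for Ctrl replicate 2 and cKO replicate 3. Those of Ctrl replicate 3 and dcKO replicate 3 also do. What the prefix means is not given, and it was not fitted. With the replicate block 15 higher and 18 lower were called in cKO, and in dcKO 1 higher and 6 lower were left unadjusted. The share of reads on the members differed by -0.065 to 0.14 points (cKO less Ctrl), -0.28 to -0.067 (dcKO less Ctrl) and -0.27 to -0.16 (dcKO less cKO) when 1 embryo was left out, and the last became -0.023 without Eef1a1.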
